A study of Columba livia with 10 samples.

Results

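The genes described here are read in a few bird brains and almost absent from the others. Levels are given as CPM, the counts of a gene per 1000000 gene counts of its library. The members were chosen by these levels: a gene entered the set when it reached at least 1 CPM in both control 3 and control 5 and averaged under 0.1 CPM over control 1, control 2 and race 1 to race 5. This rule found 72 of 22547 genes, and all 72 lie on the W chromosome in the RefSeq annotation of assembly bColLiv1.pat.W.v2. The rule used the levels in 9 libraries, so those levels are given as a description. Control 4 was not used by the rule, nor were the place of a gene on the chromosome and the levels of Z-linked genes.

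In birds the female carries a Z and a W chromosome and the male a pair of Z chromosomes. The W is passed on only from mother to daughter and, outside a short pseudoautosomal stretch where it still pairs and exchanges with the Z, it does not recombine. Its genes are mostly survivors of the ancestral pair, and many have a diverged Z-linked copy, so that transcripts of W-specific genes mark female tissue.

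RNA was sequenced from the cerebellum of 10 racing homers, domestic pigeons (Columba livia) bred to return to their loft, all raised in the same loft and trained by the widowhood method, which keeps paired birds apart between races. For the race group, 5 birds were killed on return from a competition over 300 km. For the control group, 5 birds of equal age had rested at home on the race day. The labels give 1 bird per library, no genotype or sex is stated, and the labels do not pair birds across groups. The sources disagree on the birds: in 9 of 10 cases a table carries another library number than the title of its sample. Groups here follow the sample record, which makes control 3, control 4 and control 5 rested birds. Following the titles instead would move 6 tables, and all 3 of these libraries would then belong to the race group.

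Gene counts summed to between 17953704 and 23344086 per library, so that a count of 0 allows a level of up to 0.129 to 0.167 CPM, for counting error only. The closest of the 45 pairs of libraries still differed by a chi-square of 27.5 per gene, far above sampling noise. Granule cell markers of the cerebellum, 8 of 9 symbols found, summed to 1702 to 3404 CPM, with the lowest sum in control 4 and 2461 to 3404 CPM in the other 9 libraries. Forebrain markers, 8 of 9 found, summed to 301 CPM in control 4 and to 23.3 to 51.0 CPM in the others. In whole tissue, fewer cells of a type and less RNA per cell cannot be told apart.

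The set held 60 protein-coding genes and 12 long non-coding RNAs (lncRNA). The symbol of all 72 is a locus number in the count tables and in the annotation. Only symbols were looked at, and no gene name or function is given to them here. The number of annotated transcripts per gene ranged from 1 to 26, with a median of 3, and 24 genes had only 1. Together the 72 genes took 2176 CPM in control 3 and 2001 CPM in control 5, or 0.218% and 0.20% of all gene counts. In control 4, all 72 were again detected, with a sum of 809 CPM. In the remaining libraries the sum was 1.80 CPM in control 1 and 0.997 CPM in control 2. The race libraries held less than 1 CPM each, with 0.957, 0.405, 0.308, 0.188 and 0.557 CPM in race 1 to race 5. The 3 control libraries with the high sums thus stood apart from the other 7, and both kinds occurred within the control group.

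**Figure D1:**
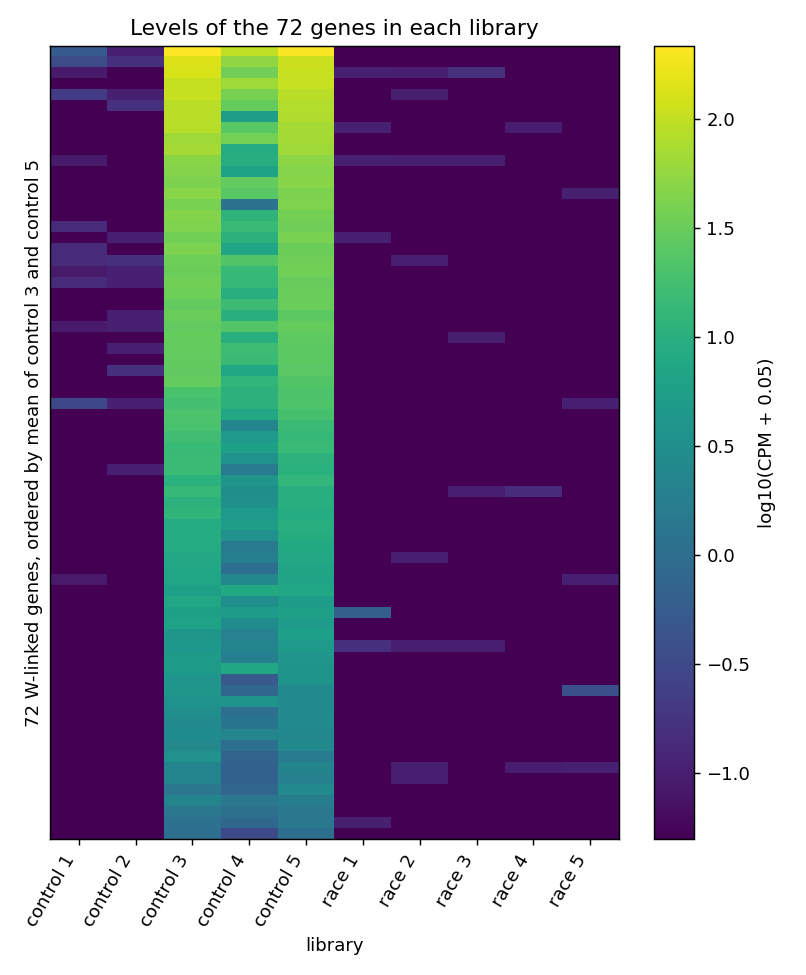
Levels of the 72 W-linked genes in the 10 libraries, with a row per gene, a column per library and colour for log10(CPM + 0.05). Control 3 and control 5 look alike, control 4 is lower in most rows, and the other 7 libraries are dark. Scattered faint cells occur most often in control 1 and control 2, and also in race libraries.

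Levels of single members ranged from 1.02 to 216 CPM in control 3, with a median of 15.9 CPM, and from 1.04 to 204 CPM in control 5, with a median of 13.5 CPM. The 12 members of highest mean held 54.9% of the set's counts in control 3, 54.1% in control 5 and 51.4% in control 4. LOC102091633 stood at 216 CPM in control 3, 98.4 CPM in control 4 and 204 CPM in control 5, against 0.514 CPM in control 1, 0.0554 CPM in control 2 and 0 counts in every race library. LOC135577076 had 140, 54.0 and 112 CPM in control 3, control 4 and control 5, with 0.30 CPM in control 1, 0.111 CPM in control 2 and again 0 in race birds. Both genes therefore showed the same order of libraries, with control 4 in the middle.

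LOC135577131 stood at 104, 65.4 and 108 CPM in control 3, control 4 and control 5 and had no count in any of the other 7 libraries. LOC135577068 stood at 129, 36.6 and 106 CPM in these 3 libraries and at 0 to 0.103 CPM elsewhere. The remaining members of the top 12 by level were LOC135577143, LOC135577195, LOC135577146, LOC135577160, LOC135577104, LOC135575271, LOC135577155 and LOC135577066. They ranged from 45.3 to 105 CPM in control 3, from 46.4 to 89.6 CPM in control 5 and from 5.37 to 39.0 CPM in control 4.

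At the CPM minimum, LOC135577044 and LOC135577077 lay just inside with a lower level of 1.02 and 1.07 CPM in control 3 and control 5, and LOC135577518 and LOC135577083 just outside with 0.973 and 0.870 CPM. Both of the outside genes are W-linked and had no count in the other 7 libraries. At the ceiling, LOC135577191 and LOC102091633 lay just inside with means of 0.0835 and 0.0814 CPM over the 7 libraries. Just outside were LOC135577074, also W-linked, with 0.181 CPM, and LOC135575589, on chromosome 16, with 0.217 CPM. LOC135577074 otherwise looked like a member, with 111, 29.7 and 107 CPM in control 3, control 4 and control 5. The chromosome 16 gene had 1.79 and 2.89 CPM in control 3 and control 5 and 0.771 CPM in control 1, so its libraries were not separated in the same way.

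Traces in the other 7 libraries were few. Of the 72 members, 42 had no count in any of the 7, and 54 had none in any race library. The other 30 shared 106 counts, of which control 1 held 42, control 2 held 18 and the race libraries between 4 and 18. Against the mean of control 3 and control 5, the summed level was 0.0862% in control 1, 0.0478% in control 2 and between 0.00902% and 0.0458% in the race libraries. The 12 members of highest level, which held 54.9% of the set's counts in control 3, held 59.5% of the trace counts in control 1, 33.3% in control 2 and 0.0% to 50.0% in the race libraries. Race 1 differed, since 11 of its 18 trace counts fell on LOC135577191, which stood there at 0.585 CPM against 5.68 CPM in control 3 and 0 counts in race 2 to race 5. Race 5 had 6 of its 10 trace counts on LOC135577082, a gene with 4.09 CPM in control 3. How these reads arose was not tested.

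Control 4 gave the only measurement outside the rule. Every one of the 72 members was higher there than in each of the 7 low libraries, and 64 reached 1 CPM. Yet 69 of the 72, or 95.8%, stood below both control 3 and control 5, and none lay between those 2 libraries. Control 4 lay above all 7 and below both in 0.61% of autosomal genes at 1 CPM in control 3 and control 5. For the members, the rule had already set the 7 libraries low. The median member stood in control 4 at 38.1% of the mean of control 3 and control 5, a log2 ratio of -1.39, with quartiles at 28.2% and 54.0%. The level was under 50% of that mean for 51 of the 72, or 70.8%, whereas 3.64% of all 12965 genes at 1 CPM in control 3 and control 5 were that low. Among 12180 autosomal genes at the same minimum the median was 96.3%, and 3.37% were under 50%. Control 4 is 1 library, so there is no replicate error for this ratio and no test.

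The low level in control 4 was not uniform over members. The SD of the log2 ratio was 0.93 over the 43 members with a mean of at least 10 CPM in control 3 and control 5, while the log2 ratio of control 5 to control 3 had an SD of 0.22 in the same genes. For autosomal genes at that level the values were 0.49 and 0.33. Another 17 W-linked genes at that level averaged at least 1 CPM in the other 7 libraries, and their values were 0.80 and 0.84. The first ratio is taken to a mean and the second to a single library. The Pearson correlation of log2 CPM over the 72 genes was 0.988 between control 3 and control 5 and 0.871 between control 3 and control 4, across genes that share each library and are not independent replicates. Protein-coding members had a median of 39.6% and lncRNA members of 31.4%.

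The extremes of this ratio were named after their values were seen. LOC135577065 had 40.6 and 42.6 CPM in control 3 and control 5 but 1.16 CPM in control 4, with an exact 95% Poisson interval of 0.726 to 1.75 CPM for counting error, which is 2.78% of the mean. LOC135577146 had 91.3 and 78.3 CPM but 5.37 CPM in control 4, or 6.33%, with an interval of 4.38 to 6.52 CPM. These were the 2 members under 10%, and neither had a count in any of the other 7 libraries.

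At the other end, LOC135577163 stood at 4.66, 7.26 and 3.79 CPM in control 3, control 4 and control 5, so control 4 was the highest, at 172% of the mean. LOC135577069 stood at 3.48, 3.79 and 2.62 CPM, or 124%, and the lncRNA LOC135577152 at 5.63, 8.05 and 7.40 CPM, or 124%. All 3 had no count in the other 7 libraries. Of the 8 members below 1 CPM in control 4, the highest elsewhere were LOC135577086 with 3.94, 0.474 and 3.70 CPM in control 3, control 4 and control 5, LOC135577082 with 4.09, 0.737 and 2.66 CPM and LOC135577526 with 3.43, 0.684 and 1.49 CPM. LOC135577150, LOC135577106 and LOC135577115 followed with 0.632, 0.632 and 0.737 CPM in control 4.

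**Figure D2:**
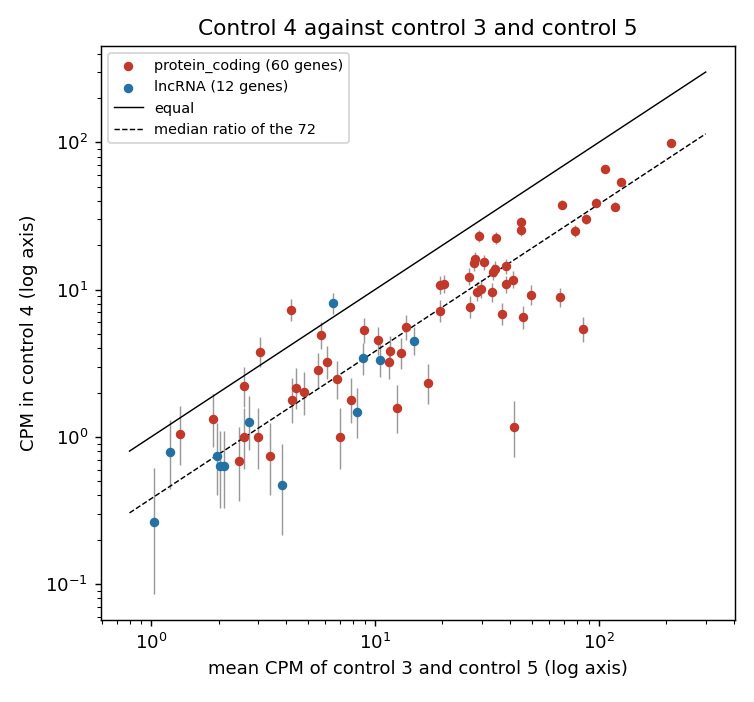
Level of each of the 72 members in control 4 against the mean of control 3 and control 5, both in CPM on log axes, with exact 95% Poisson intervals for control 4. Most points lie near or around the dashed line of the median ratio, 38.1%, 3 lie above the line of equality, and LOC135577065 lies lowest relative to its mean, at 2.78%.

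Control 4 is also the library with the forebrain markers at 301 CPM and the lowest granule cell sum. Of the granule cell markers, GABRA6, ETV1 and FAT2 were lower in another library, and the rest were lowest in control 4. Oligodendrocyte markers, 4 of 5 found, summed to 2473 CPM in control 4, against 5769 and 4900 CPM in control 3 and control 5, the highest sums of the 10 libraries. Red blood cell markers, 2 of 5 found, summed to 6.0 CPM in control 4, with 26.0 CPM in control 3, 8.31 CPM in control 5 and 3.82 to 30.2 CPM in the other 7. Of these 2, HBAD had counts only in control 5, at 0.0903 CPM, so the sum is nearly that of SLC4A1 alone. The part of these markers in the member levels was not tested, nor was whether control 4 holds the RNA of 1 bird and of cerebellum alone, and every value of that library is given within this limit. Z-linked genes moved the other way in that library. Over 584 Z-linked genes at 1 CPM in control 3 and control 5, the median level in control 4 was 137% of the mean of control 3 and control 5, and 88.0% lay above that mean, against 43.9% of autosomal genes. The Z-linked genes together took 25475 CPM in control 3, 24444 CPM in control 5 and 32889 CPM in control 4. They took 34716 to 39857 CPM in the race libraries, 30468 CPM in control 2 and 20350 CPM in control 1. Control 4 thus lay above control 3 and control 5 and below every race library, but also above control 1 and control 2, which held the members only as traces. Control 1, which held the members only as traces, had the lowest sum, but not after TMM scaling. That scaling gave 25630 CPM in control 1 and 31186 CPM in control 2. Control 3 and control 5 then stood at 24572 and 24148 CPM, and control 4 at 32354 CPM.

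**Figure D3:**
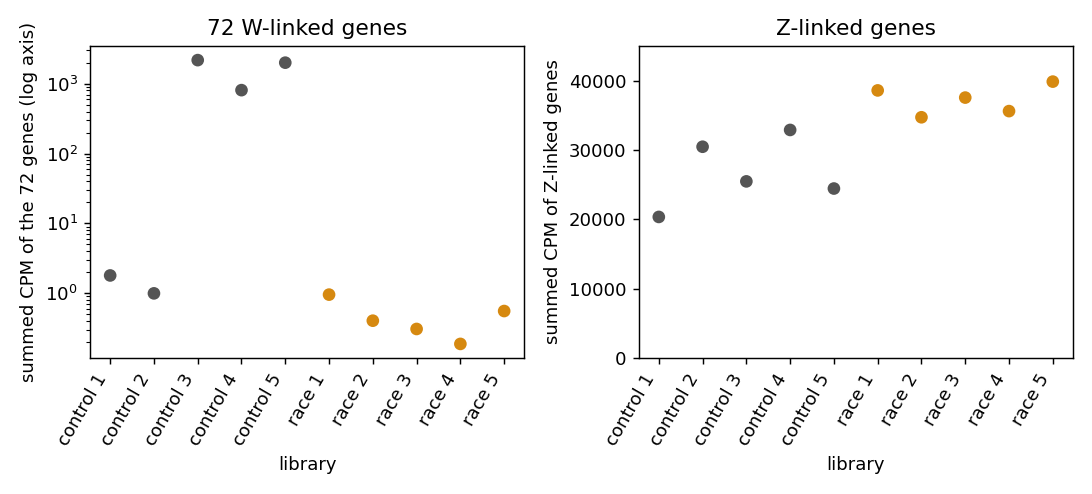
Summed level of the 72 W-linked genes (left, log axis) and of all Z-linked genes (right, axis from 0) in each library, in CPM, with control libraries in grey and race libraries in orange. Control 4, at 809 CPM on the left, lies between the pair at 2176 and 2001 CPM and the 7 libraries under 2 CPM, and on the right, at 32889 CPM, it lies between that pair and the race libraries.

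The place of the members on the chromosome was not part of the rule. The annotation places 325 genes on the W, of which 303 had a row in the count tables and a single place. These were numbered 1 to 303 in their order along the W, and no coordinates are given because the build used by the submitters is not given in the sources used here. Of the 303, 105 reached 1 CPM in both control 3 and control 5. They fell into the 72 members, 3 genes with a mean of 0.1 to 1 CPM over the other 7 libraries, and 30 genes with a mean of at least 1 CPM there. By type, 30.8% of the 195 protein-coding W genes and 12.2% of the 98 lncRNA genes of the W were members, and none of the 10 small nuclear and nucleolar RNA genes was. Among W genes at 1 CPM in control 3 and control 5 the order was the other way, with 60 of 90 protein-coding genes, or 66.7%, and 12 of 15 lncRNA genes, or 80.0%.

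Only W genes at 1 CPM in control 3 and control 5 are compared here. The members and those that averaged at least 1 CPM in the other 7 libraries occupied mostly different stretches. Up to number 92, 30 W genes reached 1 CPM in control 3 and control 5, of which 28 had such a mean and 2 were members, or 6.67%. From number 93 on, 75 reached it, of which 70 were members, or 93.3%, 3 were in between and 2 had a mean of at least 1 CPM in the others. Of the 30 genes with that mean, 18 reached 1 CPM in every library, all of them in the first stretch, and 8 lay below 0.1 CPM in at least 1 of the 7. The border was set after the data were seen, at the first gene with that mean that was followed by 5 members in a row. The longest unbroken run of members among W genes at 1 CPM was 23. The members inside the first stretch were LOC135577534, number 1 in the order, with 13.5, 3.21 and 9.57 CPM in control 3, control 4 and control 5, and LOC135577516, number 61, with 3.22 and 2.75 CPM in control 3 and control 5.

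**Figure D4:**
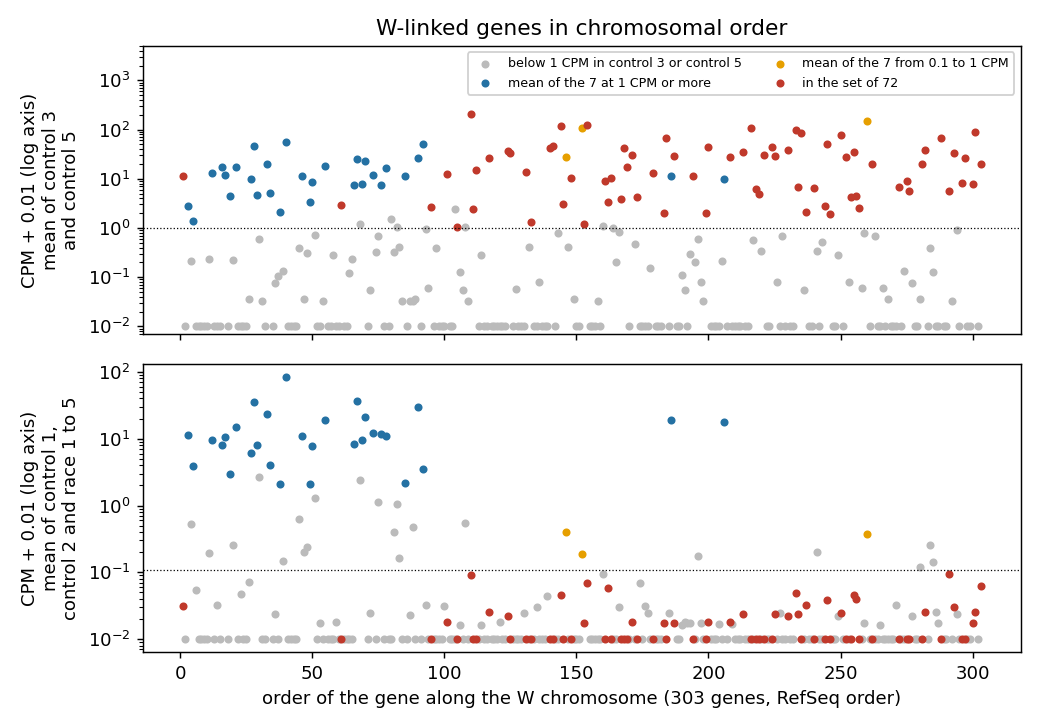
All 303 W-linked genes in their order along the chromosome, with the mean CPM of control 3 and control 5 above and of the other 7 libraries below, both as CPM + 0.01 on log axes, with the thresholds of the rule dotted. Grey marks the 198 genes below 1 CPM in control 3 or control 5, which lie in both stretches. Among the other genes, those with a mean of at least 1 CPM over the 7 libraries (blue) make up most of the first stretch, up to number 92. The members (red) make up most of the rest, where 2 blue and 3 yellow genes interrupt them.

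Number 92 itself, LOC135577036, was not a member but stepped with them. It stood at 50.9, 33.7 and 53.0 CPM in control 3, control 4 and control 5 and at 1.87 to 4.10 CPM in the other 7 libraries. The gene next before it at that level, LOC135577039 at number 90, showed no such step, with 32.3, 29.8 and 21.5 CPM in those 3 libraries and 27.0 to 34.1 CPM in the other 7. Of the 3 in-between genes, LOC135577168 stood at 154, 97.1 and 144 CPM in control 3, control 4 and control 5 and at 0 to 0.665 CPM elsewhere.

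The 30 W genes taken next reached 1 CPM in control 3, in control 5 and in the mean of the 7 libraries. Among them, LOC102098165 had the highest mean and ranged from 25.9 CPM in control 5 to 116 CPM in race 3. LOC135575221 ranged from 14.0 to 72.2 CPM and LOC135577033 from 21.9 to 43.2 CPM, without the separation that the members show. Over the 30 genes, the median level in control 4 was 102% of the mean of control 3 and control 5, and 3 of the 30, or 10.0%, lay under 50%.

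The labelled comparison of race with control birds could not be carried by the members. None of the 72 was kept by the count filter, because 3 libraries per gene are fewer than the 5 that it asks for. The control group was split for each of them, with control 1 and control 2 at or near 0. Only 7 members had every control library above every race library, through traces in control 1 and control 2, beside 0.701% of all genes. The rule used that contrast and nothing is read from it. Of W-linked genes, 36 were tested, 21 with a negative and 15 with a positive log2 fold change and a median of -0.10, beside a median of -0.03 over all 14172 genes tested. None passed an adjusted p of 0.05 by edgeR's quasi-likelihood test, where 0.0% of all genes passed, with 0.267 as the smallest adjusted p. DESeq2 called 1.83% of all genes, and how many of the W-linked genes it called is not given here. With no adjustment and p under 0.05, 4 of the 36 W-linked genes were lower and 0 higher in race birds, beside 7.14% and 6.19% of all genes. Those of smallest p were LOC135577168 and LOC135577036, with log2 fold changes of -8.10 and -3.17. Both are high in the same libraries as the members, and nothing is read from them either.

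A last comparison took the Z side. The W members could not be matched to Z copies by sequence. In their place stood a list of 30 genes written from general knowledge as candidates for copies on both sex chromosomes in birds, such as the chicken. Of these symbols 25 were found, all of them on the Z, and 24 passed the count filter. No W gene carries any of the 30 symbols, and whether a pigeon W copy of each is among the 72 is not known here. Most of the listed Z genes were lower in control 3 and control 5 than in race birds. In 21 of the 24, both of these libraries lay below every race library, beside 62.9% of the 682 Z-linked genes and 12.2% of all genes tested. In 23 of the 24, control 4 lay above both of them, beside 77.4% of Z-linked genes. In 13 it also lay below every race library, beside 30.6% of Z-linked genes and 2.81% of all genes tested with that full order. Before TMM scaling, control 1 lay below control 3 and control 5 in CHD1, MIER3, NIPBL, PAM, RASA1, SMAD2 and SPIN1. It did so too in SUB1, TMEM161B, TNPO1, ZFR, ZSWIM6, ARRDC3 and HOMER1, but not in the rest of the 24. Control 1 held the members only as traces, so in unscaled CPM low levels of listed Z genes were not limited to libraries with the members. The TMM scaling factor of control 1 was 0.794, against 0.977 to 1.05 in all other libraries. Which of these genes keep control 1 lowest after scaling is not given here.

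Among metabolic and protein-handling genes, ATP5F1A, the alpha subunit of mitochondrial ATP synthase, stood at 520, 799 and 557 CPM in control 3, control 4 and control 5, at 1308 and 1018 CPM in control 1 and control 2, and at 952 to 1167 CPM in race birds. VCP, an ATPase that extracts proteins for degradation, stood at 120, 191 and 137 CPM, then 345 and 281 CPM, and at 239 to 323 CPM in race birds. UBAP2, a ubiquitin-associated protein, stood at 36.7, 55.5 and 41.6 CPM, then 95.7 and 78.0 CPM, and at 76.9 to 85.5 CPM in race birds. All 3 genes gave the same order, with control 3 and control 5 lowest and control 4 next.

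CHD1 and SMAD2 are among the genes with control 1 below control 3 and control 5. In unscaled CPM they kept the order among control 3, control 4, control 5 and the race birds, but not for control 1 and control 2. All levels of these genes given next are without TMM scaling. Whether control 1 stays below control 3 and control 5 after scaling is not given here. CHD1, a chromatin remodeller whose W and Z copies are widely used to sex birds, stood at 49.5, 66.2 and 51.2 CPM in control 3, control 4 and control 5 and at 88.8 to 107 CPM in race birds. In control 1 it stood at 13.0 CPM and in control 2 at 38.1 CPM, below all of these. SMAD2, a transducer of TGF-beta signals, stood at 18.5, 25.7 and 17.6 CPM against 29.2 to 35.2 CPM in race birds, with 14.6 CPM in control 1 and 23.2 CPM in control 2.

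HOMER1, a postsynaptic scaffold, and PAM, which amidates neuropeptides, broke the order, with 52.7 and 237 CPM in control 4, the highest of their 10 libraries. In SPIN1, a reader of histone marks, control 4 at 218 CPM lay within the race range of 190 to 229 CPM, while control 3 and control 5 stood at 109 and 111 CPM. Without TMM scaling, control 1 was lower still in SPIN1, at 74.7 CPM, and control 2 stood at 174 CPM.

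**Figure D5:**
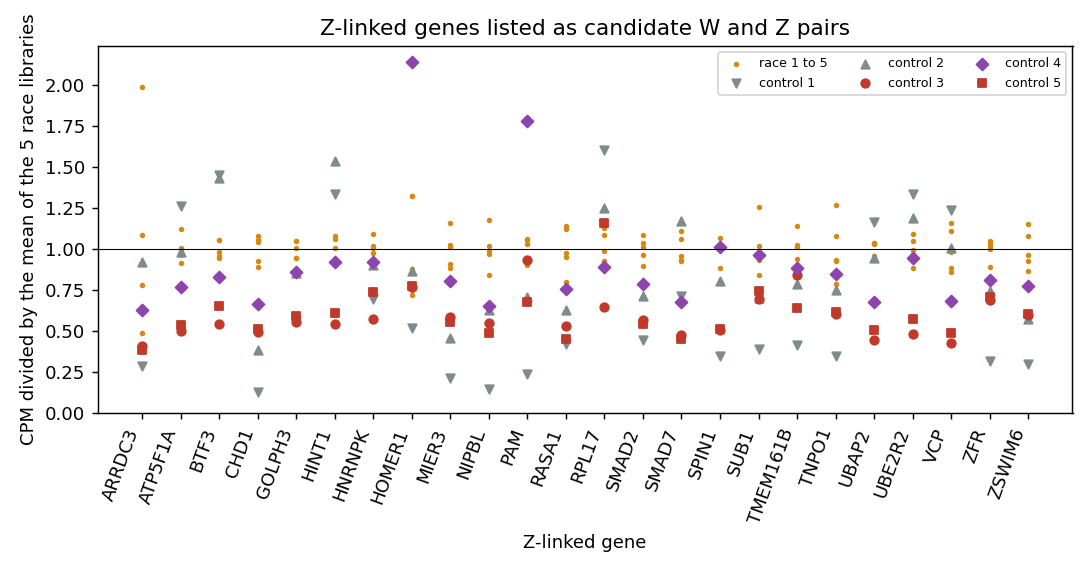
Level of the 24 listed Z genes in each library, as CPM divided by the mean of the 5 race libraries for that gene, on a linear axis from 0. Control 3 and control 5 (red) lie below every race library (orange) in 21 genes, control 4 (purple) lies above both in 23, and control 1 and control 2 (grey) scatter from the lowest to the highest values.

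By edgeR's quasi-likelihood test, none of the 24 listed Z genes passed between race and control, with a lowest adjusted p of 0.272. Of the 24, 19 had a positive log2 fold change, beside 47.4% of all genes, with a median of 0.41. At an unadjusted p under 0.05, 12 were higher and 0 lower, beside 6.19% higher and 7.14% lower among all genes and 36.5% and 1.03% among Z-linked genes. The 682 Z-linked genes tested had a median of 0.45, and 83.6% were positive, so in median and sign the list is not apart from its chromosome. Its shares at the unadjusted p and in the orders of libraries given above were higher than those of Z-linked genes. That difference was not tested. By the sample record, every library with the members above traces is a control library, and no race library is of that kind. Changes of Z-linked genes between all race and all control birds, by either method, therefore do not separate race from the presence of the members. They are not read as effects of the race. CHD1 had a mean of 43.6 ± 19.8 CPM over control and 99.4 ± 8.39 CPM over race birds (SD, n = 5 per group). Its log2 fold change was 1.13 ± 0.29 (SE, edgeR adjusted p = 0.272), and DESeq2 gave an adjusted p of 0.0212. RASA1, which switches off Ras, had means of 14.7 ± 3.62 CPM over control and 26.3 ± 3.68 CPM over race birds, with a log2 fold change of 0.74 ± 0.19 (edgeR adjusted p = 0.272, DESeq2 adjusted p = 0.0212).

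On the lower side, RPL17, a ribosomal protein, had a log2 fold change of -0.30 ± 0.27 (edgeR adjusted p = 0.590). HINT1, a nucleotide hydrolase whose W copy is amplified in chicken, had -0.14 ± 0.31 (edgeR adjusted p = 0.850), with means of 159 ± 70.4 CPM over control and 161 ± 11.9 CPM over race birds. The CPM means carry no TMM scaling and run the other way from the fitted change. Its control group spanned the race range, with 215 and 247 CPM in control 1 and control 2 and 87.1, 149 and 98.1 CPM in control 3, control 4 and control 5, and its sign turned to 0.075 without control 1 and to 0.045 without control 2.

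Comparing race birds with control 1 and control 2 alone, which leaves no library with the members above traces, gave a different picture. Of 14697 genes tested 23.2% passed, 1544 higher and 1872 lower in race birds, from 2 control birds, of which control 1 had a TMM scaling factor of 0.794, against 0.977 to 1.05 in all other libraries. Of the 24 listed Z genes 4 passed as higher and 4 as lower, and their median was 0.54. CHD1 stood at 1.79 and HINT1 at -0.75 on the log2 scale (edgeR adjusted p = 0.0134 and 0.0191). With tables linked by the sample titles 0.0212% of all genes and 0 of the 24 passed, and the median of the 24 was -0.077, so the positive direction rests on the link by sample record.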

How the data were processed

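The authors deposited a table of raw counts for each bird. The submitters' processing notes name STAR 2.7.10a, HTSeq 0.13.5 and fastp 0.23.2. The sources used here do not give the build, the annotation or the strand setting. Rows that name no gene held 18.1% to 23.4% of counts and were left out. Reads aligned to more than 1 place, 2.37% to 3.90%, are not in the gene counts, so genes with near-identical copies on the Z or W may be undercounted.

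CPM is the count over the sum of gene rows. Of 22547 gene names 22224 matched a single RefSeq row, which gave chromosome, type and order. The members and lists were chosen with earlier results of these data known. Protein sequences were not used here, so the planned match of W to Z copies was replaced by a list of candidate pairs.

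Race was compared with control by edgeR 4.0.16 (quasi-likelihood, TMM, filterByExpr with a minimum count of 10, Benjamini-Hochberg over all 14172 genes kept, two-sided, threshold 0.05; R 4.3.3), after a test on simulated counts. Alternatives were RLE scaling, no filter, DESeq2 1.42.0, limma voom 3.58.1, leaving out libraries, the link by sample title and other thresholds of the rule. Members named were the 12 of highest mean, up to 6 below 1 CPM in control 4 and those nearest each threshold, with the listed Z genes of smallest p, 2 per direction, and the 5 other W genes of highest mean. Other genes named were chosen after their values were seen.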

Additional observations from a re-analysis of the deposited data

Results flagged for a closer look

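In 108 groups of 5 libraries, those of the genes named, 8 were flagged for a highest or lowest library far from the rest. Each flagged library had a gap to its neighbour above 0.710 of the group's range. A gap made by a single count, such as that of LOC135577106 in race 2, was not flagged. This limit flags about 5% of groups of normally distributed values. Groups at or near 0 and the split control groups of members are not of that kind. Among members, LOC135577191 stood at 0.585 CPM in race 1 and LOC135577082 at 0.334 CPM in race 5, with no count in the other 4 race libraries. Among W genes close to the set, LOC135577074 stood at 0.638 CPM in race 1, with at most 0.0506 CPM in the other race libraries. The lncRNA LOC135577070 stood at 2.31 CPM in race 3, with at most 0.203 CPM in the others.

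LOC135577036, the last gene before the border, was lowest in race 2 at 1.87 CPM, where the other race libraries had 3.51 to 3.91 CPM. LOC135577039 was lowest among controls in control 5 at 21.5 CPM, with 29.2 to 32.3 CPM in the others. On the Z chromosome, ZFR, an RNA-binding protein, was lowest in control 1 at 36.8 CPM, with 80.0 to 94.1 CPM in the other controls. HOMER1 was highest in control 4 at 52.7 CPM, with 12.8 to 21.4 CPM in the other controls.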

How the results depend on the processing

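The rule found 65 to 81 genes under every other threshold and scaling and with any library of the rule left out, and 53 to 75 of them reached the minimum in control 4. The median log2 ratio of control 4 ran from -1.43 to -1.36. DESeq2 called 260 genes and 5 of the listed Z genes, where edgeR called 0 and 0. Without control 3, control 4 and control 5 the counts were 3416 and 8, and with the link by title 3 genes passed and the median of the listed Z genes was -0.077. With single libraries left out, 0 to 1 genes passed (the 1, SLC35D2, without control 4) and 0 of the listed Z genes. HINT1 turned to 0.020 with limma voom, ran from -0.31 to 0.075 with single libraries left out (positive without control 1 or control 2), and RASA1 turned to -0.053 with the link by title. With TMM and RLE scaling the Z-linked sum of control 1 was 25630 and 26774 CPM. The causes were not tested. The alternatives for the listed Z genes, the Z-linked sum and the control 4 ratio were chosen after seeing the data, and those for partners matched by sequence were not run. No paired analysis was possible because the replicate numbers follow the order of the records and pair no birds. Depth limits members near 1 CPM, about 20 counts.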

Other observations

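Some W-linked genes outside the set differed bird by bird in another pattern than the members. The W held 30 genes at 1 CPM or more in control 3, in control 5 and in the mean of the 7 low libraries. Of these 30, 8 lay below 0.1 CPM in a library and at 1 CPM or more in another of the 7. They were named after their values were seen. NARS1, an asparaginyl-tRNA synthetase, is the single W gene with a count row whose symbol is not a locus number. It stood at 9.21, 4.58 and 10.1 CPM in control 3, control 4 and control 5. Its levels were 10.4 and 31.7 CPM in race 3 and race 5, and 0 to 0.166 CPM in the other 5 libraries.

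LOC135577019 and LOC102092806, numbers 12 and 16 in the order along the W, had no count in race 2 and race 4. They stood at 6.11 and 2.02 CPM in race 1 and at 9.35 to 20.2 CPM and 6.13 to 19.6 CPM in the remaining 7 libraries. Both lie in the first stretch, where members are few.

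LOC135577107 and LOC135577119, the 2 of the 30 that lie among the members, gave nearly the same profile. They were highest in race 2, at 72.1 and 63.5 CPM, at 33.2 and 31.4 CPM in race 1, and under 1 CPM in control 1, control 2 and race 4. Whether such genes share reads with copies elsewhere in the genome was not tested.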
